A study of Rattus norvegicus with 14 samples.

Results

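The constitutive proteasome subunits were the rows of the gene count table whose symbols begin with Psma, Psmb, Psmc or Psmd and a number, leaving out the immunoproteasome subunits Psmb8, Psmb9 and Psmb10. The rule found 38 of 16816 symbols. Of these, 17 belong to the core particle (9 Psma and 8 Psmb genes) and 20 carry regulatory particle symbols (6 Psmc and 14 Psmd genes). Among the latter, Psmd5, Psmd9 and Psmd10 encode chaperones of regulatory particle assembly that are not part of the finished particle, and they are counted here by their symbols, in the sums and among the subunit genes. The remaining symbol, Psmc3ip, matches the pattern but encodes a meiotic recombination factor and no proteasome subunit, so it is counted in the totals over all 38 symbols and left out of both particles. Its log2 fold change between PPFP and EV cells without pioglitazone was 0.36 ± 0.20 (SE; adjusted p = 0.174 by edgeR's quasi-likelihood test). RNA was measured in PCCL3 cells, a rat thyroid follicular cell line grown with thyrotropin, insulin and hydrocortisone. PPFP cells stably express the human PAX8-PPARG fusion protein with a Myc tag, EV cells carry the empty vector, and each line was cultured for 16 hours with 1 μM pioglitazone, an agonist of PPARG, or with the DMSO vehicle. This gives 4 groups of 3 libraries, from EV cells without and with pioglitazone and PPFP cells without and with pioglitazone, and 12 libraries in all. Each line is a transfected derivative of the same parent, so a difference between EV and PPFP cells cannot be told apart from a difference between separately derived lines, and the sources used here do not give whether a line is a clone or a pool.

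The proteasome degrades proteins that carry ubiquitin chains. Its core particle is a barrel of alpha rings, made of Psma subunits, and beta rings, made of Psmb subunits. Psmb5, Psmb6 and Psmb7 carry the chymotrypsin-like, caspase-like and trypsin-like proteolytic sites, and Psmb8, Psmb9 and Psmb10 replace them in the immunoproteasome. The regulatory particle holds a ring of Psmc ATPases that unfold substrates, and Psmd subunits that bind and remove ubiquitin. In many cell types the subunit genes are expressed in a coordinated way, and the transcription factor Nfe2l1 raises them together when proteasome activity falls.

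The total count per library was between 23724703 and 35240176, and levels are given as CPM, the count relative to the library's total after TMM scaling. Pparg, whose mRNA the fusion shares in part, was 1.20 to 1.81 CPM in EV cells without pioglitazone and 46.9 to 60.4 CPM in PPFP cells without pioglitazone. Of 8 thyroid follicular cell markers, all were detected in every library, and in PPFP cells 5 were lower and 1 higher without pioglitazone and 6 lower and 1 higher with it. Tg, the thyroglobulin gene, was 6463 to 12130 CPM over all libraries and did not pass between the lines, whereas Foxe1, a thyroid transcription factor, was 838.5 to 896.8 CPM in EV and 122.6 to 150.7 CPM in PPFP cells without pioglitazone, and Slc5a5, the iodide transporter, 1076 to 1147 and 303.3 to 364.0 CPM. Ptprc, Pecam1, Cdh5 and Col3a1, which mark leukocytes, endothelial cells and fibroblasts, were at 0 or below 0.1 CPM in every library. Other markers of these types were detected: Cd14 at 3.53 to 6.26 CPM, Cd68 at 0.380 to 1.31 CPM and Col1a1 at 0.871 to 3.58 CPM. Pdgfra, a fibroblast marker, was the highest, at 19.0 to 32.1 CPM. The summed level of 13 such markers, which include adipocyte genes, was 30.2 to 33.4 CPM in the EV libraries, 35.6 to 50.1 CPM in PPFP cells without pioglitazone and 66.03 to 89.91 CPM with it. Of this sum Pdgfra made 19.0 to 32.1 CPM over all libraries, and Plin1, a lipid droplet gene and known PPARG target, 5.91 to 6.98 CPM in PPFP cells without and 32.9 to 46.9 CPM with pioglitazone. Of the other adipocyte genes, Adipoq was lower with pioglitazone in PPFP cells, at 4.34 to 4.664 CPM without and 1.855 to 2.946 CPM with it. Fabp4 was at most 0.1893 CPM in any library. The part of these markers in the proteasome values was not tested. CPM values of a culture do not tell more mRNA per cell from more cells that express it.

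Replicate libraries of a group did not lie close together for these genes. Of the 35 subunit genes above a mean of 1 CPM, 34 were lowest in replicate 2 and 33 highest in replicate 3 among the EV libraries without pioglitazone. With pioglitazone 29 were lowest in replicate 2 and 33 highest in replicate 3. In PPFP cells 34 were highest in replicate 1, both without and with pioglitazone. Over all genes tested, 36.0% were lowest in replicate 2 and 34.7% highest in replicate 3 in EV cells without pioglitazone, and 43.3% were highest in replicate 1 in PPFP cells without pioglitazone. The 11 proliferation genes followed the same libraries: all 11 were lowest in replicate 2 and highest in replicate 3 of each EV group and highest in replicate 1 of each PPFP group. Their summed level was 1615 to 3116 CPM in EV and 2376 to 4048 CPM in PPFP cells without pioglitazone. Whether proliferation has a part in the proteasome values was not tested.

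**Figure D1:**
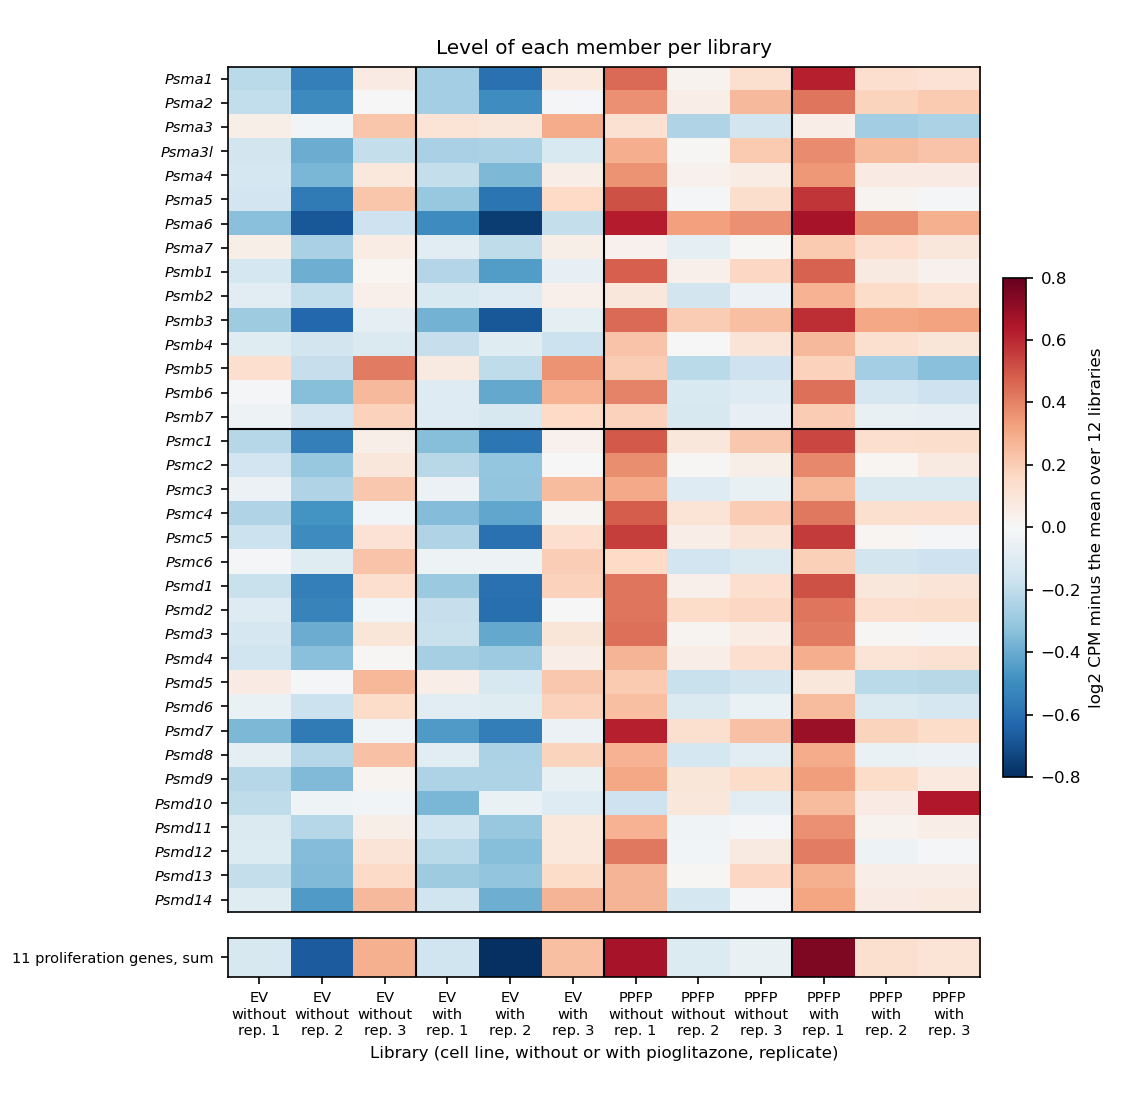
Level of 35 subunit genes (rows, log2 CPM minus the gene's mean over 12 libraries, colour) in each library (columns, grouped by cell line and treatment), with the sum of 11 proliferation genes below. Replicate 2 of both EV groups is low and replicate 1 of both PPFP groups is high for most rows, and the row of proliferation genes has the same pattern.

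Promoter windows are shown for 4 genes. Psma6, Psmb3 and Psmd7 have the largest log2 differences between PPFP and EV cells without pioglitazone in the Psma, Psmb and Psmd families. Psmb5 has the lowest value among the beta subunits. No window of the Psmc family, where Psmc4 has the largest difference, is shown. They run from 250 bases before to 50 bases after the transcription start, from RefSeq in GRCr8, and 31 of the 37 subunit genes matched by symbol. They are written 5′ to 3′ on the gene's strand, with capitals for CCAAT or its reverse complement ATTGG (the box bound by NF-Y) and for TGACNNNGC on either strand (the core of the element bound by Nfe2l1 and Nfe2l2 with small Maf proteins). The windows are chr6:78514097-78514396 on the plus strand for Psma6, chr10:83193537-83193836 on the plus strand for Psmb3, chr19:52411267-52411566 on the minus strand for Psmd7 and chr15:32047330-32047629 on the minus strand for Psmb5.
Psma6: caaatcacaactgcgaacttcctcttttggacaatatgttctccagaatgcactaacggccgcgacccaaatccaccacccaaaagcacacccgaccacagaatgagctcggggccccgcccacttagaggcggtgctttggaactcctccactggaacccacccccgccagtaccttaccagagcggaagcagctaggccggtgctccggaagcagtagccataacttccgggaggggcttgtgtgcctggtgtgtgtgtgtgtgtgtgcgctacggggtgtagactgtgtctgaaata
Psmb3: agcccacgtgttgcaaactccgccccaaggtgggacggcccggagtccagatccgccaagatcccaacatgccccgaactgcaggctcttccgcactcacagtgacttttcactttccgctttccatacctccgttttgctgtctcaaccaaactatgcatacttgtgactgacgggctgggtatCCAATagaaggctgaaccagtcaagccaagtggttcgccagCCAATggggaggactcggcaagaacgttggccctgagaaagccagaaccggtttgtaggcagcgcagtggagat
Psmd7: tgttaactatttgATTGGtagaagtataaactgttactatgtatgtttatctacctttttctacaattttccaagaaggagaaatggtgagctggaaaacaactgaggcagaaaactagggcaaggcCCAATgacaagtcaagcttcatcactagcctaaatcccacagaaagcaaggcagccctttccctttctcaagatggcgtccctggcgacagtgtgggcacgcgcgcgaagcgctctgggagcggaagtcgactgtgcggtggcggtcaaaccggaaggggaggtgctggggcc
Psmb5: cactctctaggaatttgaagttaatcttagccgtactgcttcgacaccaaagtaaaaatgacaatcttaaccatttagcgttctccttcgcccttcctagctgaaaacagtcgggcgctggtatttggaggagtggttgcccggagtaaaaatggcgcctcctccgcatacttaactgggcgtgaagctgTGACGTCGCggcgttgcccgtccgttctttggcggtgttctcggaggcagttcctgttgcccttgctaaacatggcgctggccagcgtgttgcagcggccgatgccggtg

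CCAAT was present in 16 of 31 subunit windows, or 51.6%, and in 37.5% of 33469 windows of all genes. It was present in 9 of 14 core and 7 of 17 regulatory windows. TGACNNNGC was present in 7 of 31 windows, or 22.6%, and in 12.1% of all windows. Psmb3 has 2 CCAAT matches, starting 65 and 24 bases before the start, and Psmd7 has 1 on each strand. Psma6, with the largest difference of all, has neither motif in its window, and Psmb5 has TGACGTCGC starting 60 bases before the start. The DR1 repeat, to which PPARG binds with its partner, was searched on both strands and found in none of the 31 windows and in 0.415% of all windows. Among the subunits that passed the test between PPFP and EV cells without pioglitazone, 6 of 9 windows held CCAAT, against 10 of 21 among those tested that did not pass. For TGACNNNGC the order was the other way, with 1 of 9 against 6 of 21. Neither difference was tested.

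The first comparison asks how PPFP alters these genes without pioglitazone. 10 members were higher in PPFP than in EV cells and none was lower, all with small differences: the largest was 1.77-fold and none passed 2-fold. In the core particle Psma2, Psma3l, Psma6 and Psmb3 rose, and in the regulatory particle Psmc1, Psmc4, Psmd2, Psmd4, Psmd7 and Psmd9 rose. The catalytic subunits Psmb5, Psmb6 and Psmb7 did not pass the test. Summed over its members, the core particle had 2653 ± 318 CPM (SD, n = 3) in PPFP and 2171 ± 313 CPM in EV cells, and the regulatory particle had 4562 ± 637 and 3658 ± 611 CPM. The means were 22.2% and 24.7% higher in PPFP cells, the groups overlapped for both sums, and the exact permutation test gave p = 0.2 for each (two-sided, where 3 against 3 libraries cannot go below 0.1). The core sum was 2191, 1849 and 2474 CPM in EV replicates 1 to 3 and 3011, 2402 and 2545 CPM in PPFP replicates 1 to 3, so EV replicate 3 lay above PPFP replicate 2.

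**Figure D2:**
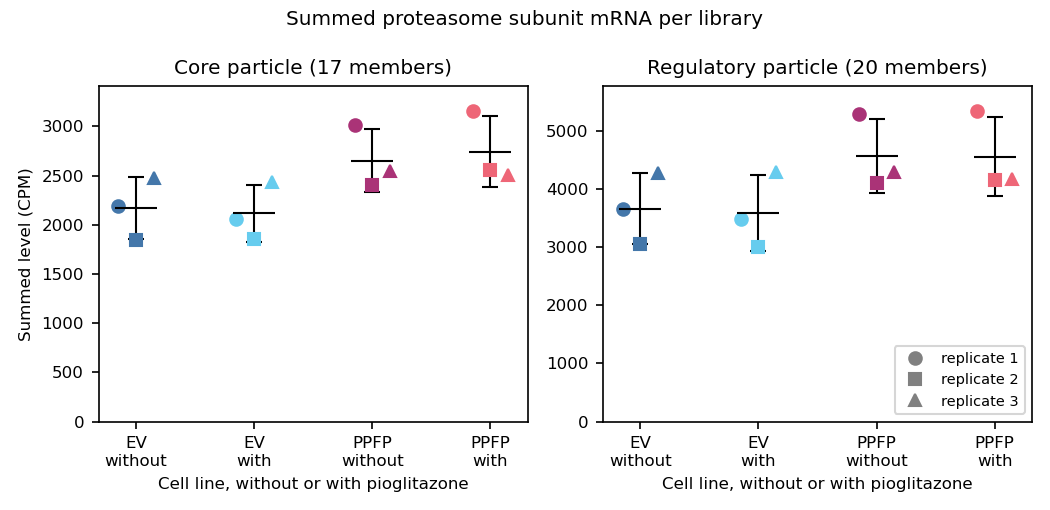
Summed level (CPM) of the core and the regulatory particle in each library, by cell line and by culture without or with pioglitazone, with one marker shape per replicate number, and the mean and SD as bars. The core sums are 1849 to 2474 CPM in EV and 2402 to 3011 CPM in PPFP cells without pioglitazone, and those of the regulatory particle overlap in the same way.

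Genes were tested with edgeR's quasi-likelihood method, and p-values were adjusted after Benjamini and Hochberg over 10264 genes, of which 36 were members. The 10 members called higher were 27.8% of those tested, against 22.0% of all genes tested. No member was called lower (0 at an unadjusted p under 0.05, and 0 by DESeq2), against 23.1% of all genes. No member passed both an adjusted p of 0.05 and a 2-fold change, against 14.6% of all genes. The CPM ranges did not overlap, with PPFP higher, for 12 of the 36 members, against 27.6% of all genes. With PPFP lower they did so for no member, against 28.9% of all genes. The median log2 fold change was 0.29 over 15 core members and 0.27 over 20 regulatory members, and 0.0016 over all genes tested. The estimate was above 0 for 32 of 36 members. Psma8, a testis alpha subunit, with 3 to 18 counts in every library, and Psmb11, the thymus beta subunit, with 1 to 6, did not pass the filter. The count of members called depended on single libraries: without EV replicate 1 or 2 it was 2, without EV replicate 3 it was 19, without PPFP replicate 1 or 3 it was 3, and without PPFP replicate 2 it was 9. The share of all genes called higher in these fits moved less, from 16.9% to 22.8%, so the members' share lay below that of all genes in some fits and above it in others. Scaling by library size alone gave 4 members, against 18.4% of all genes.

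**Figure D3:**
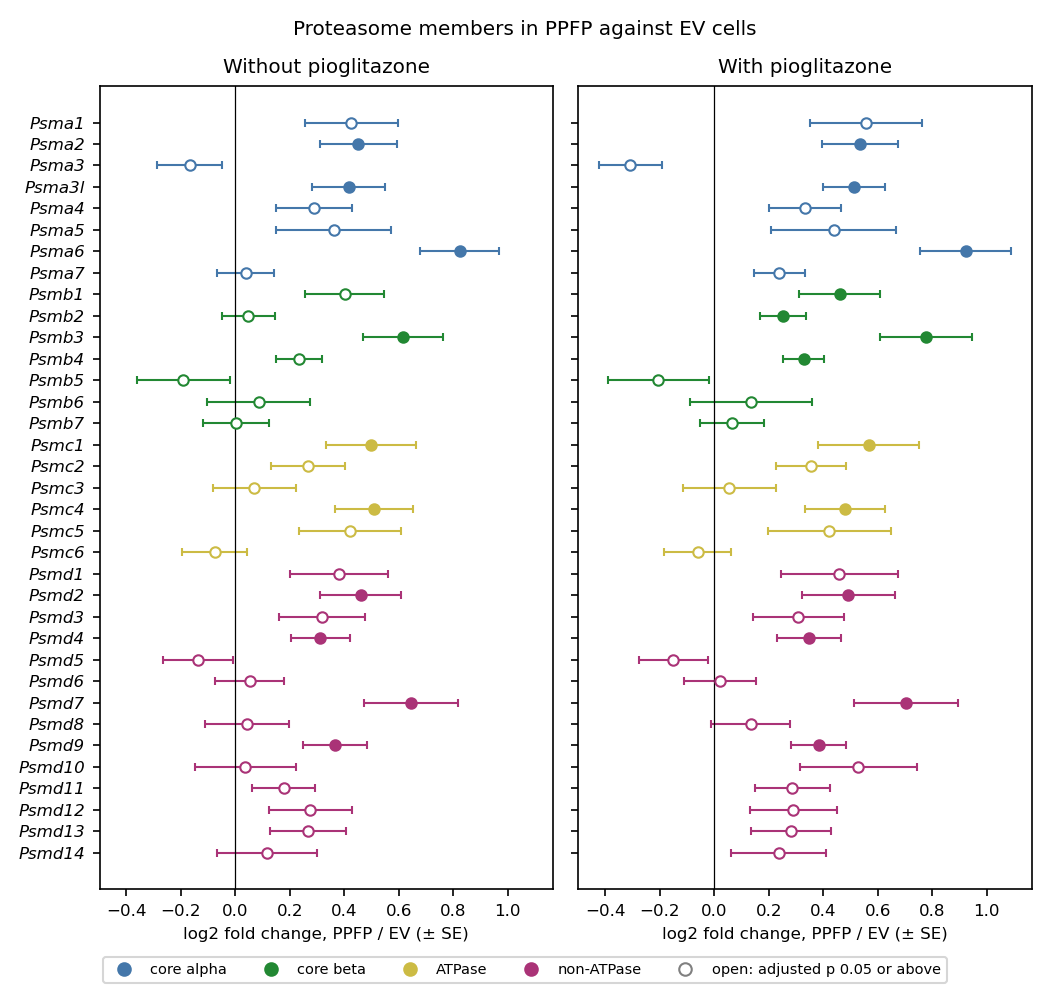
log2 fold change of PPFP over EV cells with its standard error for 35 subunit genes, without pioglitazone (left) and with it (right), on the same axis, coloured by class, with filled points for an adjusted p under 0.05. The sparse Psma8, which was tested only with pioglitazone, is left out. Psma6 is highest in both panels, at 0.82 and 0.92, and most estimates lie between 0 and 0.6.

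Psma6, an alpha ring subunit, was 181, 143 and 203 CPM in EV cells without pioglitazone and 353, 287 and 294 CPM in PPFP cells. All PPFP libraries were above all EV libraries. Its log2 fold change was 0.82 ± 0.15 (SE; 1.77-fold, adjusted p = 0.0029), and it was called in all 14 alternative fits. Psma3, another alpha subunit, had the lowest fold change of its class: it was 55.9, 53.3 and 63.2 CPM in EV and 58.9, 45.7 and 48.8 CPM in PPFP cells, with overlap and a log2 fold change of -0.17 ± 0.12 (adjusted p = 0.29). Psma3l, a near-copy of Psma3 between which reads may be split, had 0.42 ± 0.13 (adjusted p = 0.0368), a call lost in 8 of 14 alternative fits. Psma2 had 0.45 ± 0.14 (adjusted p = 0.0347), while Psma1 (0.43), Psma4 (0.29), Psma5 (0.36) and Psma7 (0.04) did not pass. Of these, Psma1 passed in 3 of 14 alternative fits, and Psma4 and Psma5 in 1 each.

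Psmb3, a beta ring subunit without a proteolytic site, was 169, 134 and 196 CPM in EV and 282, 237 and 244 CPM in PPFP cells. The groups did not overlap. The log2 fold change was 0.62 ± 0.15 (1.53-fold, adjusted p = 0.0111), and the call held in all 14 alternative fits. Psmb5 was 142, 114 and 173 CPM in EV and 149, 112 and 116 CPM in PPFP cells, overlapping, with a log2 fold change of -0.19 ± 0.17 (adjusted p = 0.40). Psmb6 was 116, 92.4 and 140 CPM in EV and 153, 108 and 109 CPM in PPFP cells, with 0.09 ± 0.19 (adjusted p = 0.741). Psmb7 was 175, 162 and 205 CPM in EV and 205, 165 and 172 CPM in PPFP cells, with 0.0010 ± 0.12 (adjusted p = 0.996). For all 3 catalytic genes the spread between libraries was as large as any difference. Psmb1 (0.40), Psmb2 (0.05) and Psmb4 (0.23) did not pass. In the alternative fits Psmb1 passed in 5 of 14 and Psmb4 in 4, and for both the PPFP libraries lay above the EV libraries without overlap.

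Psmc4, an ATPase of the ring, was 152, 129 and 177 CPM in EV and 251, 193 and 206 CPM in PPFP cells, with no overlap and a log2 fold change of 0.51 ± 0.14 (adjusted p = 0.022). Psmc6 was 112, 106 and 132 CPM in EV and 126, 101 and 104 CPM in PPFP cells, with overlap and -0.08 ± 0.12 (adjusted p = 0.635). Psmc1 rose by 0.50 ± 0.17 on the log2 scale (adjusted p = 0.0421), and Psmc2 (0.27), Psmc3 (0.07) and Psmc5 (0.42) did not pass.

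Psmd7, the partner of the deubiquitinase Psmd14, was 102, 87.9 and 128 CPM in EV and 201, 142 and 153 CPM in PPFP cells, with no overlap and a log2 fold change of 0.64 ± 0.17 (1.56-fold, adjusted p = 0.0186). Psmd5, a chaperone of regulatory particle assembly, was 72.4, 68.6 and 83.2 CPM in EV and 80.0, 61.1 and 62.5 CPM in PPFP cells, with overlap and -0.14 ± 0.13 (adjusted p = 0.419). Psmd2, a large scaffold and the most abundant member by CPM, rose by 0.46 ± 0.15 (adjusted p = 0.038). Psmd9, another assembly chaperone, rose by 0.37 ± 0.12 (adjusted p = 0.0371), and Psmd4, a ubiquitin receptor, by 0.31 ± 0.11 (adjusted p = 0.0498), which lies just inside the threshold and was lost in 11 of 14 alternative fits. Of the other calls without pioglitazone, those of Psmd2 and Psmd9 were each lost in 6 of the 14, those of Psma2 and Psmc1 in 5, that of Psmc4 in 4 and that of Psmd7 in 2. The others did not pass: Psmd1 (0.38), Psmd3 (0.32), Psmd6 (0.05), Psmd8 (0.04), Psmd10 (0.04), Psmd11 (0.18), Psmd12 (0.28), Psmd13 (0.27) and Psmd14 (0.12). Of these, Psmd1, Psmd3 and Psmd13 each passed in 1 of the 14 alternative fits. Psmd10 has 46 to 98 counts per library.

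The make-up of each particle's summed CPM was compared as shares, in which a rise of some members lowers the share of the others by construction. Of 15 core members, the share of the summed core CPM was higher in every PPFP than every EV library without pioglitazone for 5 and lower for 5. Of 20 regulatory members it was higher for 4 and lower for 8. Among all genes tested, the ratio to the core sum was higher without overlap for 11.4% and lower for 40.9%, and that to the regulatory sum for 9.98% and 40.6%. Psma6 took 11.7% ± 0.196 of the core sum in PPFP cells and 8.07% ± 0.305 in EV cells (SD, n = 3), and Psmb3 took 9.61% ± 0.254 and 7.62% ± 0.362. Psmb5 took 4.72% ± 0.213 and 6.56% ± 0.417 and Psmb7 6.82% ± 0.0523 and 8.35% ± 0.392, although the CPM of neither passed the test. The third catalytic subunit, Psmb6, took 4.61% ± 0.430 and 5.32% ± 0.333, with overlap (exact permutation p = 0.2). The exact permutation p was 0.1 for each of the others, the smallest that 3 against 3 libraries allow.

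With pioglitazone in both lines, the 10 members called without it were called again, and Psmb1, Psmb2 and Psmb4 were added, 13 in all and none lower. The comparisons use different libraries of the same experiments, and the same replicate numbers stand apart in both, so the repeat is not independent. Of the added calls, that of Psmb2 was lost in 10 of 14 alternative fits, that of Psmb1 in 5 and that of Psmb4 in 3, and among the others Psmd4 was lost in 9, Psmd2 in 8, Psmc1 and Psmc4 in 6 each, Psmd9 in 3, Psmd7 in 2 and Psma2 in 1. Psma6 rose by 0.92 ± 0.17 on the log2 scale (adjusted p = 0.0030) and Psmb3 by 0.78 ± 0.17 (adjusted p = 0.0065). The test covered 10291 genes and 37 members, of which 35.1% were called higher, against 26.3% of all genes tested. None was called lower, against 26.4% of all genes (1 member at an unadjusted p under 0.05, and 1 by DESeq2). That member, Psma3, passed as lower in 5 of 14 alternative fits: DESeq2, all 12 libraries in 1 fit, library size alone, at least 10 counts in every library, and without PPFP replicate 1. No member passed 2-fold, against 19.7% of all genes. The groups did not overlap, with PPFP higher, for 18 members, against 31.0% of all genes, and with PPFP lower for 1, Psma3, against 32.0% of all genes. The median log2 fold change was 0.33 over 16 core and 20 regulatory members alike. These core members include Psma8, which passed the filter in this comparison. It had 0.323 CPM in PPFP and 0.433 CPM in EV cells and the lowest estimate of all members, at -0.40 ± 0.34 (adjusted p = 0.357). The core sum was 2742 ± 361 CPM in PPFP and 2116 ± 294 CPM in EV cells (SD, n = 3), without overlap (exact permutation p = 0.1), and the regulatory sum 4557 ± 679 and 3593 ± 653 CPM, with overlap (exact permutation p = 0.3). Psmc2 (0.35, adjusted p = 0.0516), Psma1 (0.56, adjusted p = 0.0555) and Psma3 (-0.31, adjusted p = 0.0567) lay just outside the threshold. In the alternative fits Psma1 passed as higher in 5 of 14, Psmc2 in 3 and Psmd1 in 2. The count without EV replicate 1, 2 or 3 was 3, 6 or 24, and without PPFP replicate 1, 2 or 3 it was 8 (7 higher and 1 lower), 5 or 8, where 19.3% to 26.7% of all genes were higher. Scaling by library size alone gave 6 members, 5 higher and 1 lower, against 19.9% of all genes higher. That scaling moved the median of all genes from 0.0121 to -0.125.

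The pioglitazone comparison within a cell line asks what the agonist does to these genes. By edgeR's quasi-likelihood test, no member passed in PPFP cells (2 at an unadjusted p under 0.05, 0 by DESeq2), where 14.8% of all genes passed. No member passed in EV cells (0 at an unadjusted p under 0.05, 0 by DESeq2), where 0% of all genes passed. The difference in response between the lines was not called for any member (0 at an unadjusted p under 0.05, 0 by DESeq2), against 2.64% of all genes. In PPFP cells the core sum with pioglitazone was 1.03 times that without it (exact permutation p = 0.6) and the regulatory sum 0.999 times (exact permutation p = 1.0). In EV cells these ratios were 0.974 and 0.982 (exact permutation p = 0.8 for both). In PPFP cells 5 of the 8 thyroid markers were lower with pioglitazone, and all 8 with replicates paired. Their summed level was 13720 to 14350 CPM without and 10020 to 10330 CPM with it, most of it Tg, and the part of this in the proteasome values was not tested. With replicate numbers paired within a cell line, 6 members were higher with pioglitazone in PPFP cells and none lower, and none in EV cells was called in either direction (2 at an unadjusted p under 0.05). These 6 were Psma1, Psma7, Psmb2, Psmb3, Psmd11 and Psmd14, with log2 differences of 0.08 to 0.22. They make 16.7% of 36 members tested, below the 27.7% of all genes called higher in that fit. None was called lower (0 at an unadjusted p under 0.05), against 23.9% of all genes. In EV cells the same fit called 0.00986% of all genes.

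Psmb2, a beta ring subunit, had paired log2 differences of 0.185, 0.291 and 0.161 in PPFP cells and -0.0334, 0.092 and 0.00126 in EV cells for replicates 1 to 3, and a blocked log2 fold change of 0.22 ± 0.04 in PPFP cells (adjusted p = 4.4e-05). Psma7 had 0.171, 0.21 and 0.083 in PPFP cells and -0.138, 0.0582 and -0.0115 in EV cells, with 0.17 ± 0.04 (adjusted p = 0.00037). Psmb3 had 0.135, 0.109 and 0.0794 in PPFP cells and -0.092, -0.0518 and 0.00484 in EV cells, with 0.12 ± 0.03 (adjusted p = 0.0047). Psmd11 had 0.0924, 0.0555 and 0.071 in PPFP cells, and Psmd14 had 0.0492, 0.206 and 0.0912. Psma1 had 0.173, 0.103 and -0.0127, so 5 of the 6 called members were higher in all 3 PPFP pairs and Psma1 in 2. Of the 35 subunit genes, 8 were higher in all 3 PPFP pairs and 7 in none, and in EV cells 1 was higher in all 3 and 9 in none. Pairs were not counted in this way over all genes, so these counts are not read as particular to the subunit genes. In the blocked test of the difference between lines, 3 members were higher in PPFP cells, Psmb2, Psma7 and Psmb3, against 17.2% of all genes, and 1 was lower, Psma3, against 17.1%. Psma3 had paired differences of -0.0717, -0.0379 and -0.105 in PPFP cells and 0.0593, 0.111 and 0.0743 in EV cells, so its pairs moved in opposite directions in the lines. Of the proliferation genes, 10 of 11 were higher in PPFP cells in this test of the difference. In the paired responses themselves, 7 of 11 were higher with pioglitazone in PPFP cells and 0 in EV cells, and their part in these results was not tested.

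**Figure D4:**
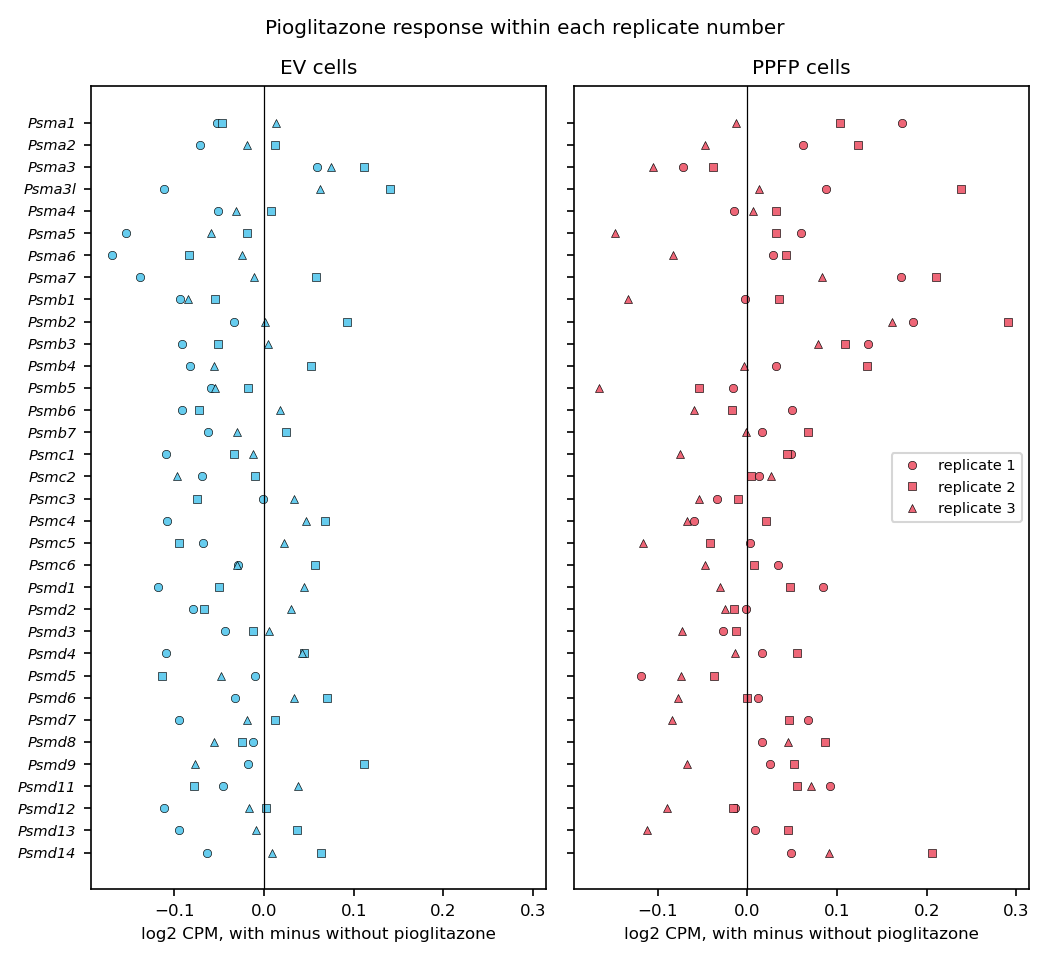
log2 CPM with minus without pioglitazone in each replicate number (marker shape) for 34 subunit genes, in EV cells (left) and PPFP cells (right), leaving out the sparse Psmd10. Most points lie between -0.2 and 0.2, and Psmb2 and Psma7 are above 0 in all 3 PPFP pairs.

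The immunoproteasome subunits were set beside the constitutive genes they replace. Psmb8 was higher in PPFP cells by 0.93 ± 0.15 on the log2 scale without pioglitazone (adjusted p = 0.0021) and by 1.15 ± 0.16 with it (adjusted p = 0.0009). Psmb10 was higher without pioglitazone, by 0.71 ± 0.22 (adjusted p = 0.0331), and had 0.31 ± 0.25 with it (adjusted p = 0.33). The test of that difference gave adjusted p = 0.777, and 0.00023 with replicates paired within each line. Psmb9 had 0.53 ± 0.22 and 0.63 ± 0.25 and did not pass (adjusted p = 0.0887 and 0.0675). The count of Psmb8 over that of Psmb5 in the same library was 1.06, 0.992 and 0.98 in EV cells and 2.06, 2.28 and 2.32 in PPFP cells without pioglitazone. The scale of such a ratio depends on the lengths of both transcripts, so only its change between groups is read: it was 2.19 times higher in PPFP cells, 2.62 times with pioglitazone, with no overlap (exact permutation p = 0.1 for both, the smallest possible). Psmb9 over Psmb6 was 1.42 times higher and Psmb10 over Psmb7 1.66 times higher in PPFP cells without pioglitazone, again without overlap (exact permutation p = 0.1 for both). With pioglitazone Psmb9 over Psmb6 was 1.49 times higher (exact permutation p = 0.1), while Psmb10 over Psmb7 was 1.21 times higher with overlapping groups (exact permutation p = 0.4). Within PPFP cells the latter ratio with pioglitazone was 0.699 times that without it (exact permutation p = 0.1). In PPFP cells the paired fit found Psmb10 lower with pioglitazone by a log2 fold change of -0.48 ± 0.04 (adjusted p = 1.69e-09) and Psmb8 higher by 0.18 ± 0.04 (adjusted p = 0.00022), where the unpaired fit gave adjusted p = 0.0539 and 0.204.

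**Figure D5:**
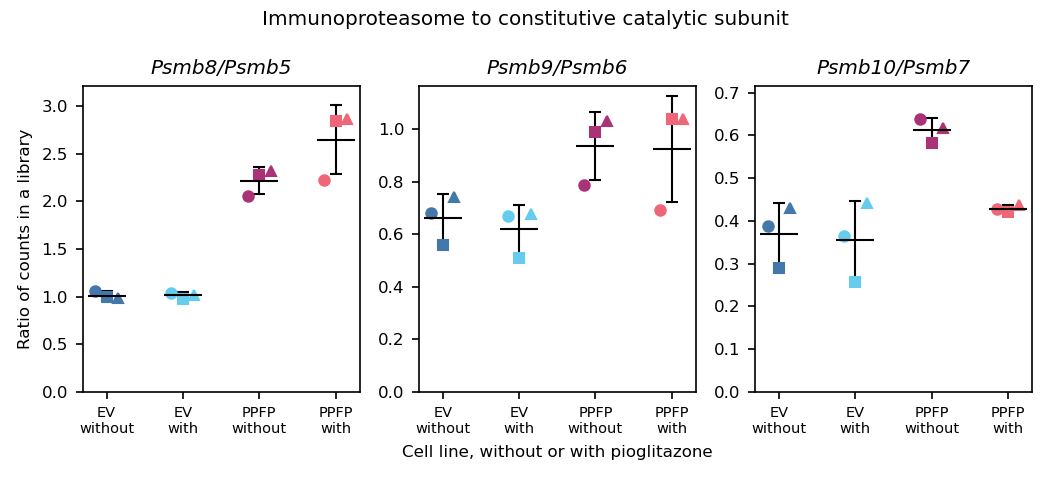
Ratio of the counts of an immunoproteasome subunit to the constitutive subunit it replaces in each library (points, marker shape by replicate), with mean and SD, by group. The ratio of Psmb8 to Psmb5 is 0.978 to 1.06 in the EV libraries and 2.06 to 2.87 in the PPFP libraries.

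Other genes of the pathway were counted by list in PPFP versus EV cells without pioglitazone, where, as given above, 22.0% of all genes tested were higher and 23.1% lower. Of 4 assembly chaperones outside the members, Pomp, which matures the core particle, rose by 0.47 ± 0.10 (adjusted p = 0.0064) and Psmg1 by 0.27 ± 0.08 (adjusted p = 0.0296, lost with the replicate block at 0.0933). Of 4 further regulatory particle subunits and bound enzymes, Shfm1, a small subunit, rose by 0.50 ± 0.08 (adjusted p = 0.0021), and the deubiquitinases Uchl5 and Usp14 passed only with pioglitazone, at 0.76 and 0.40. The tests of the difference in response gave adjusted p = 0.854 for Uchl5 and 0.97 for Usp14, and 0.00846 and 0.448 with replicates paired within each line. Of the 5 activators and inhibitor, none passed without pioglitazone. Psme1, an activator subunit, had -0.20 ± 0.08 without pioglitazone (adjusted p = 0.0904) and was lower with it, at -0.36 ± 0.10 (adjusted p = 0.0201), a call lost with the replicate block (adjusted p = 0.0582). The difference between these values gave adjusted p = 0.657, and 0.0151 with replicates paired within each line. Of 9 shuttle and delivery factors tested, Ufd1l rose (0.53, adjusted p = 0.0026), as did Faf2 (0.22, adjusted p = 0.0462, lost with the replicate block at 0.125), and Faf1 fell (-0.67, adjusted p = 0.0018). Of the 10 transcription factors and their regulators, Nfyb rose (0.63, adjusted p = 0.0017), and Nfyc (-0.54, adjusted p = 0.0032) and Ddi2, the protease that activates Nfe2l1, fell (-0.40, adjusted p = 0.0073). Nfe2l1 (-0.27, adjusted p = 0.225) and Nfe2l2 (-0.04, adjusted p = 0.802) did not pass. None of the 11 proliferation genes passed without pioglitazone (median log2 fold change 0.43). In the pioglitazone response of PPFP cells, where 14.8% of all genes passed, 4 genes of these pathway lists passed without pairing. Ddi2 rose by 0.42 ± 0.07 (adjusted p = 0.0134), Maff, a small Maf factor, by 0.88 ± 0.21 (adjusted p = 0.039) and Ubqln4, a shuttle factor, by 0.32 ± 0.05 (adjusted p = 0.0118), and Psme1 was lower at -0.25 ± 0.05 (adjusted p = 0.0253).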

How the data were processed

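RNA of 12 libraries was sequenced after TruSeq preparation. Per the labels and the study's methods, the authors demultiplexed reads with CASAVA 1.8.2, aligned them to rn4 with TopHat2 2.0.11, counted reads per gene with HTSeq 0.6.1p1 in intersection-strict mode and tested them with edgeR 3.2.4. The strand setting and the annotation are not given in the sources used here. The deposited values are whole-number counts per gene symbol, of which 3447 symbols have no count in any library. The peak lists of the series were not used here.

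Counts were analysed with edgeR 4.0.16 in R 4.3.3, with genes of low count removed by filterByExpr, TMM scaling, the quasi-likelihood test and Benjamini-Hochberg adjustment over all genes tested, at 0.05. Each pair of groups was fitted on its 6 libraries, and the difference in pioglitazone response on all 12. DESeq2 1.42.0 was an alternative. The code was tested on simulated data. Sums and ratios were compared by two-sided exact permutation tests. The study's methods describe 3 independent experiments, with the samples of an experiment, from both lines, sequenced together on shared lanes. Whether the replicate numbers follow these experiments across the lines is not given. Same-numbered libraries of 1 cell line deviated together, with correlations of deviations over genes of 0.743, 0.464 and 0.432 in PPFP cells and 0.530, 0.729 and 0.774 in EV cells, so pioglitazone comparisons are also given with the replicate number as a block. Deviations from a group's mean sum to 0, so where same-numbered libraries correlate, differently numbered ones are pushed below 0 by construction. They were below 0 in EV cells, which adds no support for pairing. In PPFP cells replicates 2 and 3 also correlated with each other across treatments (0.351 and 0.536), so there the numbers set apart replicate 1 only. Between the cell lines the correlations were -0.378 to 0.316 for the same number and -0.448 to 0.509 for different numbers, and no pairing was assumed.

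Members and gene lists were chosen with earlier results of these data known. Every member that passed the filter is named with its log2 fold change between PPFP and EV cells without pioglitazone, and Psma8 and Psmb11 did not pass it there. Psma8 passed it between the lines with pioglitazone, in the pioglitazone response of EV cells and in the difference in response. CPM values in each library without pioglitazone are given for the catalytic subunits. They are also given for the highest and the lowest fold change of each of the Psma, Psmb, Psmc and Psmd families. The plan also held up to 5 members called in each pioglitazone comparison, of which the unpaired tests gave none. The members called only with pairing, whose paired values are given, were chosen after their values were seen. Alternatives were other tests, scalings and filters, all libraries in 1 fit, the replicate block and leaving out each library. Some results of the gene lists are not reported here.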

Additional observations from a re-analysis of the deposited data

Results flagged for a closer look

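In 4 members the response to pioglitazone differed between PPFP and EV cells by edgeR's quasi-likelihood test of the difference with replicates paired within each cell line. Psmb2 (log2 difference 0.19, adjusted p = 0.0115), Psma7 (0.19, adjusted p = 0.0196) and Psmb3 (0.15, adjusted p = 0.0176) had the higher response in PPFP cells. For Psma3 the difference was -0.15 (adjusted p = 0.038), with all 3 pairs lower with pioglitazone in PPFP cells and all 3 higher in EV cells. Without pairing, none of the 4 passed. The members higher were 8.11% of 37 tested, against 17.2% of all genes, and 17.1% of all genes were lower. In the same fit 10 of 11 proliferation genes were higher, and their part in these values was not tested.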

How the results depend on the processing

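Psma6 and Psmb3 stayed called in all 14 alternatives of each comparison of PPFP with EV cells, and Psmd7 in 12. Leaving out a library without pioglitazone, the median log2 fold changes between PPFP and EV cells ranged from 0.18 to 0.41 for the core and 0.17 to 0.40 for the regulatory particle, and library size alone with pioglitazone gave 0.20 and 0.19. Leaving out a library gave 2 to 19 members called without pioglitazone and 3 to 24 with it. Library size alone gave 4 and 6 called. Pairing by a replicate block called 6 members in the pioglitazone response of PPFP cells and 4 in the difference between lines, where the unpaired tests called none. The shares called higher, 16.7% and 8.11%, lie below the 27.7% and 17.2% of all genes in those fits. Between the lines, where the numbers are not shown to pair, the block called 10 members without pioglitazone, 8 of them among the 10 called without the block, and 12 with it, against 19.6% and 22.3% of all genes called higher. Psmb9, not called in either, passed with the block (adjusted p = 0.0297 and 0.0373). Signs of single members turned only for estimates of at most 0.135 in absolute value, the largest being Psmb6 with pioglitazone. In the pioglitazone comparisons only members called with pairing were followed. Of these, Psma1 and Psmd11 turned in the response of PPFP cells. With library size alone, the log2 fold change without pioglitazone became -0.045 for Psma7, -0.036 for Psmb2, -0.00065 for Psmb6, -0.083 for Psmb7, -0.015 for Psmc3, -0.033 for Psmd6, -0.043 for Psmd8 and -0.043 for Psmd10. With pioglitazone it became -0.0016 for Psmb6, -0.072 for Psmb7, -0.081 for Psmc3, -0.12 for Psmd6 and -0.0031 for Psmd8. With no filter on low counts it was -0.0034 for Psmb7 without and -0.0068 for Psmd6 with pioglitazone, and with at least 10 counts in every library -0.0026 and -0.0056. Leaving out a library without pioglitazone gave ranges of -0.062 to 0.090 for Psma7, -0.0096 to 0.11 for Psmb2, -0.084 to 0.24 for Psmb6, -0.078 to 0.10 for Psmb7, -0.050 to 0.20 for Psmc3, -0.16 to 0.022 for Psmc6, -0.046 to 0.14 for Psmd6, -0.082 to 0.18 for Psmd8, -0.029 to 0.11 for Psmd10 and -0.046 to 0.31 for Psmd14. With pioglitazone the ranges were -0.078 to 0.32 for Psmb6, -0.018 to 0.15 for Psmb7, -0.082 to 0.20 for Psmc3, -0.18 to 0.0076 for Psmc6 and -0.11 to 0.10 for Psmd6. In the pioglitazone response of PPFP cells they were -0.083 to 0.22 for Psma1 and -0.037 to 0.17 for Psmd11. The median of the core members there ranged from -0.083 to 0.12 and that of the regulatory members from -0.11 to 0.10. The cause of these changes was not tested. Depth limits Psma8, Psmb11 and Psmd10.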
